A study of Mus musculus with 8 samples.

Results

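Transcripts of 10 genes of the interferon gamma response were examined in the jejunal mucosa of mice lacking the fatty acid receptor FFA2 in adipocytes. The 10 genes were the chemokines Cxcl9 and Cxcl10, the transcription factors Irf1 and Irf8, the guanylate-binding proteins Gbp2, Gbp3, Gbp6 and Gbp7, the enzyme Ido1 and the feedback inhibitor Socs1. They were taken by symbol, and all 10 were found among the 56980 gene identifiers of the count tables. Cxcl9 and Irf1 were picked because they were higher in the knockout, so their difference between genotypes is described below without a test. The other 8 came from the list as a whole. Gbp6 did not reach 10 counts in 4 libraries, which left 9 members among the 15986 genes tested.

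Male Adipoq-F2-KO mice carried floxed FFA2 alleles and an Adiponectin-Cre transgene, and their FFA2 fl/fl littermates carried the floxed alleles without Cre (the floxed controls). Littermates shared cages from birth, ate chow until 12 weeks of age, and were then given a Western diet with 10% fructooligosaccharides (a fermentable fiber) for 2 weeks in thermoneutral housing. RNA came from scrapings of the jejunal mucosa, a mixed tissue, with 4 mice and 4 libraries per genotype. Adiponectin-Cre acts in adipocytes, so the deletion lay outside the sampled tissue and the FFA2 transcript of the jejunum is no check of it.

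Interferon gamma is a cytokine made mainly by T cells, natural killer cells and innate lymphoid cells. It binds the receptor formed by IFNGR1 and IFNGR2, the kinases JAK1 and JAK2 start the signal inside the cell, and the response acts on gamma-activated sites in the DNA of target genes. IRF1, itself a product of this pathway, carries the response on through interferon-stimulated response elements. In the gut the pathway is known for drawing T cells into the mucosa, for arming epithelial cells and macrophages against intracellular microbes, and for antigen presentation.

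The promoters of the members are given here because these DNA elements link the members to the pathway. RefSeq sequences (assembly GRCm38.p6) covering 250 bases before and 50 bases after a transcript start were matched by symbol, and 8 of the 10 members had an entry, with 11 windows in all. Gbp6 and Ido1 had none. Both strands were searched for the gamma-activated site TTCNNNGAA, which is its own reverse complement, and for the response element GAAANNGAAA, whose reverse complement is TTTCNNTTTC. Among 32851 promoters of the same length, 8.30% held the first, 3.44% the second and 11.3% either one. A match describes letters and does not show binding. Matches to the first motif were found in 3 members (Irf1, Irf8 and Gbp7) and matches to the second in 5 (Cxcl10, Gbp2, Gbp3, Gbp7 and Socs1). The matches in Gbp3 overlapped each other, as did those in Socs1. The window of Cxcl9 held neither, which says only that these letters are not in this stretch. The windows below are shown for the 2 chemokines and for Irf1, Gbp2 and Gbp7, on which the results turn. They lie at chr5:92328030-92328329 (minus strand, Cxcl9), chr5:92348840-92349139 (minus strand, Cxcl10), chr11:53769764-53770063 (plus strand, Irf1), chr3:142620413-142620712 (plus strand, Gbp2) and chr3:142530086-142530385 (plus strand, Gbp7). Capitals mark the matches, which began 213 bases before the start in Cxcl10, 90 in Irf1, 59 in Gbp2, and 106, 87 and 53 in Gbp7. The bases after the start lay in an annotated transcript (GENCODE M21) for the windows shown, except that of Gbp7. Its distances thus hold for the RefSeq start only.
Cxcl9: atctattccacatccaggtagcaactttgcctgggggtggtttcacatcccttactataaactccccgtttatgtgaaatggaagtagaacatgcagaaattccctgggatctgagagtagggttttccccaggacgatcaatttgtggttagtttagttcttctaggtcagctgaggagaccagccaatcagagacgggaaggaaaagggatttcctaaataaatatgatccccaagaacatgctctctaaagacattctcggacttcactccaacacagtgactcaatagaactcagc
Cxcl10: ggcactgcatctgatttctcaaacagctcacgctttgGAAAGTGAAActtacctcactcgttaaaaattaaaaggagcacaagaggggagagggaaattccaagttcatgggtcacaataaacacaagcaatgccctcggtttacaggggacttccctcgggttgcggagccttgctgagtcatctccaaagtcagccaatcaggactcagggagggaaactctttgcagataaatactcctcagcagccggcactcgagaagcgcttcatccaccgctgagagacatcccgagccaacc
Irf1: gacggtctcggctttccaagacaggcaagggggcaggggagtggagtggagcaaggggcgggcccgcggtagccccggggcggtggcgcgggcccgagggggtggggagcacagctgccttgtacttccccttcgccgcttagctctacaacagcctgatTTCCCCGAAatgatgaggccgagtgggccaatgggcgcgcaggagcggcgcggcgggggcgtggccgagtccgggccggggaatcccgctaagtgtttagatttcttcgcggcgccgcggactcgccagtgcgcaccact
Gbp2: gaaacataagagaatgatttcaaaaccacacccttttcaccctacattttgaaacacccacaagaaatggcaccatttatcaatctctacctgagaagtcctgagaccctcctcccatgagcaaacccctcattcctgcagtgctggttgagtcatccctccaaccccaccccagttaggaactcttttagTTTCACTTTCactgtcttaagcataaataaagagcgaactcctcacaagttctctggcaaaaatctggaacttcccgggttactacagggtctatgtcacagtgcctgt
Gbp7: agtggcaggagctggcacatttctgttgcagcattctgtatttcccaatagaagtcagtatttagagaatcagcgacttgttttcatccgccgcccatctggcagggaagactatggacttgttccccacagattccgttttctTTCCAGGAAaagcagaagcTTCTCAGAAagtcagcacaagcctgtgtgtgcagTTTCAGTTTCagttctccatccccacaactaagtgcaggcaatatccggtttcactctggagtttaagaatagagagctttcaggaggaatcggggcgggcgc

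Read counts ranged from 6007654 to 21712776 per library, and 3 libraries (floxed 3, Adipoq-F2-KO 3 and 4) lay under 10000000. Floxed library 3 also stood apart in tissue content. Its summed normalized count over 8 smooth muscle markers was 20627, against 187 to 3478 in the other floxed controls and 388 to 7114 in Adipoq-F2-KO. The enterocyte markers were high throughout, with sums of 540239 to 650801 over 11 genes. Over all tested genes, DESeq2 called 6 at an adjusted p below 0.05, which is 0.0375% of them, and none was a member. Levels are given as normalized counts, each count being divided by its library's size factor from DESeq2, and a positive log2 fold change means a higher level in Adipoq-F2-KO.

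The members spanned a wide range of levels. On a scale corrected for exon length and depth (RPKM), Irf1 had the highest level, with a mean of 33.3 over the 8 libraries. Irf8 and Ido1 followed at 12.3 each and could not be ordered. Irf8 was at 12.3 in both genotypes, and Ido1 at 9.40 in floxed controls and 15.2 in Adipoq-F2-KO. Gbp2 (2.07), Gbp7 (1.66) and Gbp3 (1.16) came next. Gbp2 exceeded Gbp7 in 5 of 8 libraries, within the spread, whereas Gbp7 exceeded Gbp3 in 7. Cxcl9 (0.685), Socs1 (0.602) and Cxcl10 (0.567) followed, in an order that changed with genotype. Cxcl9 was the lowest of them in floxed controls (0.404, against 0.531 for Socs1 and 0.623 for Cxcl10) and the highest in Adipoq-F2-KO (0.966, against 0.673 and 0.511). This move of Cxcl9 restates the genotype difference by which it was picked, and is no finding. Gbp6 was lowest, at 0.0765, and below Cxcl10 in all 8.

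**Figure D1:**
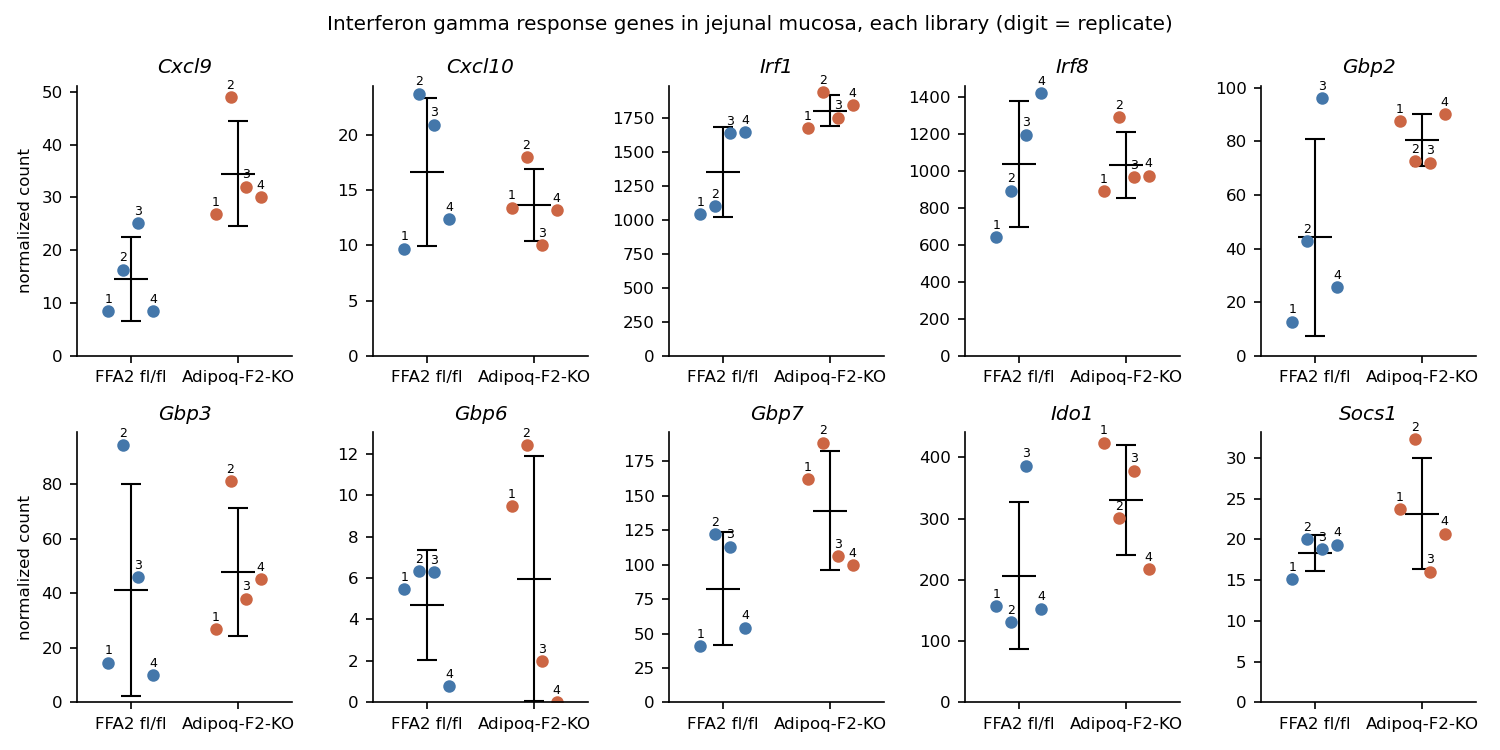
Normalized counts (y axis, linear, from 0) of the 10 members in the 4 FFA2 fl/fl and 4 Adipoq-F2-KO libraries (x axis), 1 point per library labelled with its replicate digit, with mean and SD as the bar. Cxcl9 and Irf1 separate the genotypes, and floxed library 3 lies above all Adipoq-F2-KO libraries in Gbp2 (96.2) and among them in Ido1 (387), while the other 3 controls lie below all of them in both.

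Cxcl9 (ENSMUSG00000029417, chr5:92321347-92328079, minus strand) encodes a chemokine that attracts T cells through the receptor CXCR3 and is a classical product of interferon gamma signaling. Its normalized counts were 8.48, 16.3, 25.1 and 8.51 in floxed controls 1 to 4 and 26.8, 49.0, 32.0 and 30.1 in Adipoq-F2-KO 1 to 4. The genotypes did not overlap, the lowest knockout lying just above floxed library 3, and Adipoq-F2-KO library 2 was the highest. These values chose the gene. The means were 14.6 ± 7.91 and 34.5 ± 9.90 (SD, n = 4 each), a ratio of 2.36 and a fitted log2 fold change of 1.36 (SE 0.44). Raw counts were small, 11 to 31 per floxed library and 16 to 79 per knockout library. Leaving out each library in turn gave log2 fold changes of 1.11 (without Adipoq-F2-KO library 2) to 1.64 (without floxed library 3).

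Cxcl10 (ENSMUSG00000034855, chr5:92346638-92348889, minus strand), the neighboring chemokine gene that signals through the same receptor, did not share this separation. Normalized counts were 9.69, 23.7, 20.9 and 12.4 in floxed controls and 13.4, 18.0, 10.0 and 13.2 in the knockouts, which all lay inside the range of the controls. The log2 fold change was -0.22 (SE 0.48, 95% interval -1.16 to 0.71, DESeq2 adjusted p = 0.9998). It was -0.43 without floxed library 1, and turned to 0.048 without floxed library 2 and to 0.031 in the 5 libraries of at least 10000000 counts. An exon of Art3 on the other strand overlaps Cxcl10, and Art3 held 94 counts in all against 145 for Cxcl10, so reads of the pair may not be fully separated. Cxcl11, the gene of another CXCR3 ligand, is annotated as a polymorphic pseudogene in the mouse and was looked at after its values were seen. It ran from 84.3 to 149 in floxed controls and from 49.7 to 98.1 in Adipoq-F2-KO, with 3 of 4 knockouts below all controls (log2 fold change -0.59, SE 0.28, adjusted p = 0.9998 by DESeq2). The transcript of the receptor itself, Cxcr3, also looked at afterwards, ran from 7.88 to 16.7 in floxed controls and from 11.3 to 16.6 in Adipoq-F2-KO. Its log2 fold change was 0.21 (SE 0.46, DESeq2 adjusted p = 0.9998), with 0.035 without floxed library 1 and 0.34 without floxed library 3.

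Irf1 (ENSMUSG00000018899, chr11:53770014-53778374, plus strand) encodes the transcription factor that relays the interferon gamma signal. Normalized counts were 1039.6, 1099, 1637 and 1644 in floxed controls and 1675, 1938, 1749.8 and 1842 in the knockouts. The genotypes did not overlap, the knockouts exceeding floxed libraries 3 and 4 by a small margin and floxed libraries 1 and 2 by a wide one. As with Cxcl9, this separation chose the gene. The means were 1355 ± 331 and 1801 ± 114 (SD, n = 4 each), a ratio of 1.33 and a log2 fold change of 0.41 (SE 0.17). Leaving out each library in turn gave 0.31 to 0.53.

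The annotation places an antisense gene, Gm17334, across Irf1 on the opposite strand, and the strand setting of the counting was not given. Gm17334 was named after its values were seen. It held 1911 counts, 13.8% of the Irf1 counts, and between 12.1% and 15.6% in each library. Its normalized counts were 151, 159, 255.1 and 207 in floxed controls and 246, 254.8, 258 and 224 in Adipoq-F2-KO, with floxed library 3 inside the knockout range. The order of the floxed libraries thus resembled that of Irf1, with libraries 1 and 2 lowest. The log2 fold change of Gm17334 was 0.38 (SE 0.19, DESeq2 adjusted p = 0.9998).

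Irf8 (ENSMUSG00000041515, chr8:120736358-120756694, plus strand) encodes a factor required for monocyte and dendritic cell development that interferon gamma also induces. Normalized counts were 642, 895, 1198 and 1422 in floxed controls and 891, 1293, 967 and 976 in Adipoq-F2-KO. The knockouts lay within the control range, with a log2 fold change of -0.01 (SE 0.23, 95% interval -0.46 to 0.45, DESeq2 adjusted p = 0.9998), whose sign changed with the library left out.

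The guanylate-binding proteins are large GTPases that coat pathogen-containing vacuoles and intracellular bacteria. Gbp2 (ENSMUSG00000028270, chr3:142620602-142638008), Gbp3 (ENSMUSG00000028268, chr3:142560026-142573209) and Gbp7 (ENSMUSG00000040253, chr3:142530342-142550149) lie in the cluster on chromosome 3 and Gbp6 (ENSMUSG00000104713, chr5:105270702-105293698) in the cluster on chromosome 5. Paralogs in these clusters are similar in sequence, so counts may be split or lost between them and the values of single genes are uncertain. Gbp2 had normalized counts of 12.7, 42.7, 96.2 and 25.5 in floxed controls and 87.6, 72.5, 72.1 and 90.2 in Adipoq-F2-KO. Floxed library 3 held the highest value of all 8, and the other 3 controls lay below every knockout. Its log2 fold change was 0.92 (SE 0.48, 95% interval -0.02 to 1.87, DESeq2 adjusted p = 0.9998).

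Gbp7 had normalized counts of 40.6, 122, 113 and 54.2 in floxed controls and 162, 188, 106 and 99.6 in Adipoq-F2-KO, so that 2 of 4 knockouts lay above all controls. Its log2 fold change was 0.78 (SE 0.37, 95% interval 0.05 to 1.51), with a DESeq2 adjusted p of 0.9998. It was 0.55 without floxed library 1 and 1.27 in the 5 libraries of at least 10000000 counts, where it was not called (DESeq2 adjusted p = 0.27). Gbp3 had 14.5, 94.3, 46.0 and 10.1 in floxed controls and 26.8, 81.2, 38.0 and 45.1 in Adipoq-F2-KO. The second library of each genotype was the highest, and the groups overlapped fully (log2 fold change 0.22, SE 0.63, 95% interval -1.01 to 1.45, DESeq2 adjusted p = 0.9998). The value turned to -0.18 without Adipoq-F2-KO library 2 and was 1.13 without floxed library 2. Gbp6 had 9, 12, 3 and 1 raw counts in floxed controls and 12, 20, 1 and 0 in Adipoq-F2-KO, too few for the test. Of the 8 libraries, 4 held 3 counts or fewer, and no fold is given.

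Ido1 (ENSMUSG00000031551, chr8:24584136-24597009, minus strand) encodes indoleamine 2,3-dioxygenase, which starts the breakdown of tryptophan along the kynurenine route. Normalized counts were 157, 131, 387 and 153 in floxed controls and 424, 301, 378 and 218 in Adipoq-F2-KO. Floxed libraries 1, 2 and 4 lay close together and below all knockouts, and floxed library 3 was exceeded by 1 knockout. The log2 fold change was 0.70 (SE 0.34, 95% interval 0.04 to 1.36, DESeq2 adjusted p = 0.9998).

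Socs1 (ENSMUSG00000038037, chr16:10782240-10785536, minus strand) encodes the inhibitor that shuts off JAK kinases after interferon signaling. Normalized counts were 15.1, 20.03, 18.8 and 19.3 in floxed controls and 23.7, 32.2, 16.02 and 20.7 in Adipoq-F2-KO. In 3 of 4 knockouts the value lay above all controls, by a small margin in library 4. Its log2 fold change was 0.40 (SE 0.37, 95% interval -0.33 to 1.13, DESeq2 adjusted p = 0.9998), and 0.17 without Adipoq-F2-KO library 2.

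The results for Gbp2 and Ido1 turned on floxed library 3, the library rich in smooth muscle transcripts and the shallowest of the 8. Without it, Gbp2 had a log2 fold change of 1.57 (DESeq2 adjusted p = 0.00780) and Ido1 of 1.17 (DESeq2 adjusted p = 1.6e-04), and both passed the threshold. DESeq2 then called 103 genes, 0.644% of those tested. In the 5 libraries of at least 10000000 counts, which exclude floxed library 3 and Adipoq-F2-KO libraries 3 and 4, Ido1 had a log2 fold change of 1.30 (DESeq2 adjusted p = 7.2e-06), among 78 genes called (0.488%). Gbp2 had 1.56 in these libraries and was not called (DESeq2 adjusted p = 0.169). With the smooth muscle score as a covariate and all 8 libraries, Gbp2 had 1.11 (DESeq2 adjusted p = 0.27) and Ido1 0.75, and neither was called. The part of smooth muscle content and of depth in these differences was not tested further.

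**Figure D2:**
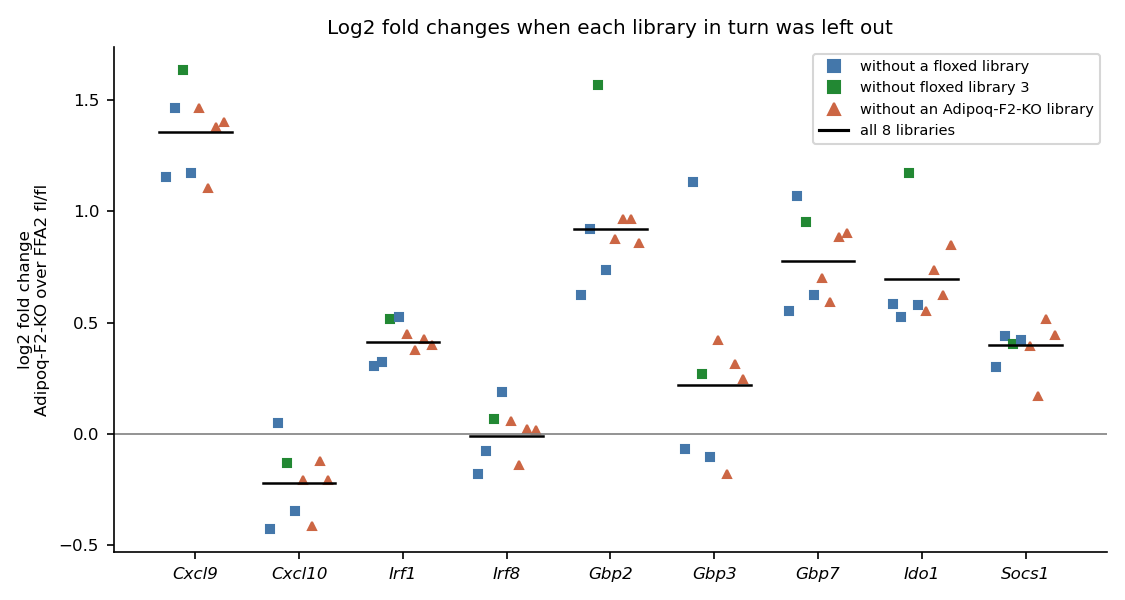
Fitted log2 fold change (y axis, Adipoq-F2-KO over FFA2 fl/fl) of the 9 tested members (x axis) with all 8 libraries (black line) and with each library left out in turn (points, FFA2 fl/fl library 3 in green). Leaving out that library moved Gbp2 from 0.92 to 1.57 and Ido1 from 0.70 to 1.17, and Irf8, Cxcl10 and Gbp3 had points on both sides of 0.

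Upstream of the members, the cytokine itself was barely detected. Ifng had 0, 0, 1 and 2 raw counts in floxed controls and 1, 2, 1 and 0 in Adipoq-F2-KO, under the floor of 3 counts in every library, and no fold is given. The receptor and kinase transcripts were plentiful and close between genotypes. Ifngr1 had a mean of 1236 ± 197 in the floxed and 1236 ± 136 in the knockout libraries (SD, n = 4 each), with a log2 fold change of 0.00 (SE 0.15) whose sign turned under trimmed-mean (TMM) scaling. Ifngr2 had a log2 fold change of -0.05 (SE 0.11), Jak1 of 0.06 (SE 0.11) and Jak2 of 0.15 (SE 0.15), all with a DESeq2 adjusted p of 0.9998. Leaving out 1 library moved Jak1 between 0.015 (without Adipoq-F2-KO library 4) and 0.14 (without floxed library 3), and Jak2 between 0.064 (without floxed library 2) and 0.29 (without floxed library 3).

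**Figure D3:**
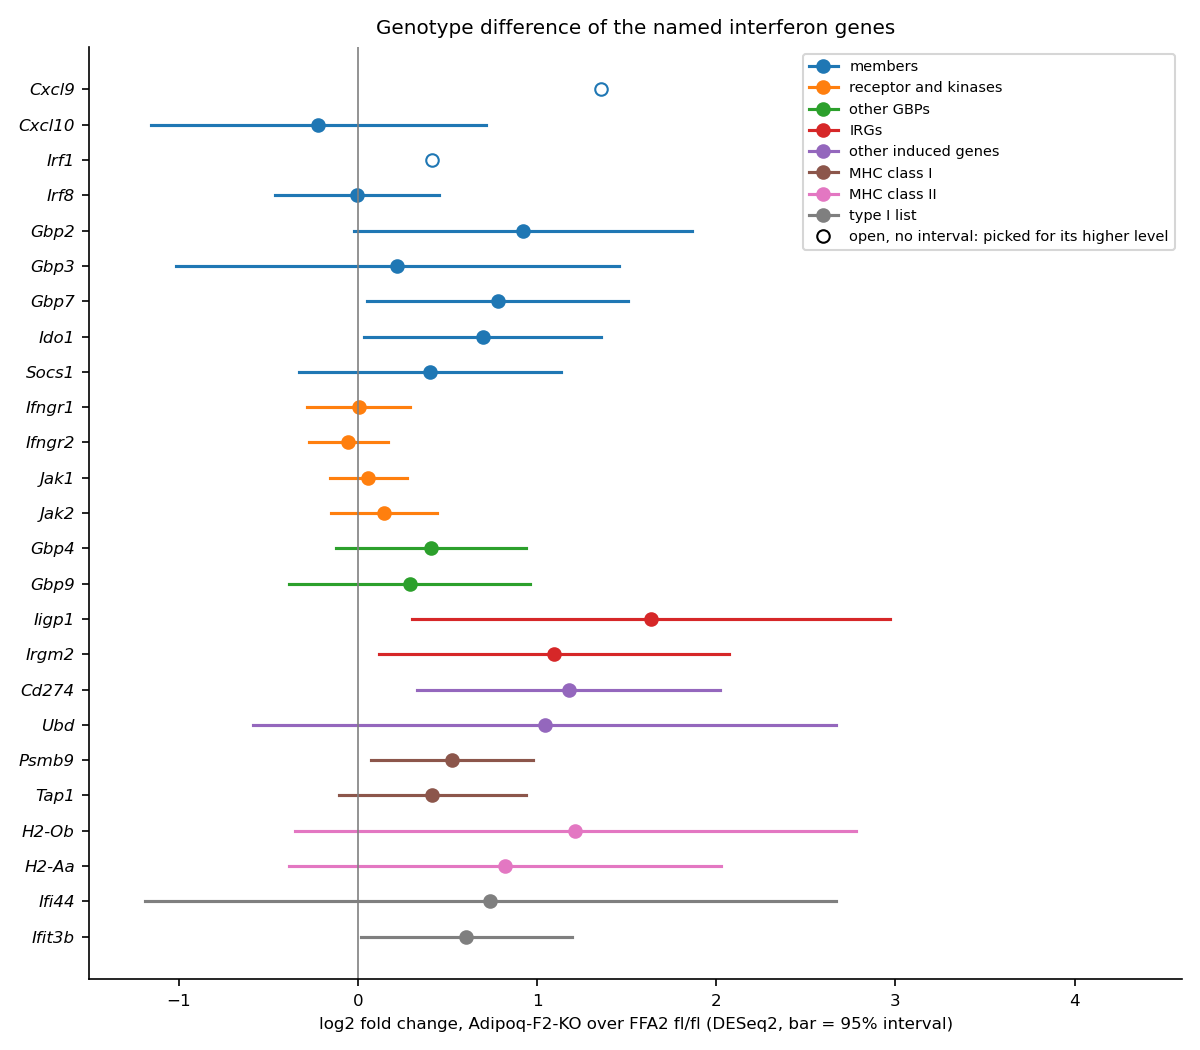
DESeq2 log2 fold changes (x axis, Adipoq-F2-KO over FFA2 fl/fl) with 95% intervals for the tested members, the receptor and kinase genes, and the genes named from the other lists (y axis). Cxcl9 (1.36) and Irf1 (0.41) are open and carry no interval because they were picked for their higher level, and the genes from the other lists, among them Iigp1 (1.64), Cd274 (1.18) and Irgm2 (1.09), were named for the size of their fold change, so nothing is read from where their intervals lie.

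Over the 9 tested members, 7 had a fitted log2 fold change above 0 and 2 below it, with a median log2 fold change of 0.41, which is the value of Irf1. Over all tested genes 7753 were higher and 8233 lower, with a median of -0.01. Since 2 members were picked for being higher, the 7 others tested are given apart: 5 were higher and 2 lower, with a median of 0.40. This median fell to 0.17 without Adipoq-F2-KO library 2. With all 8 libraries none of these 7 was called by DESeq2, edgeR or limma. DESeq2 called Gbp2 and Ido1 without floxed library 3, and Ido1 in the 5 libraries of at least 10000000 counts. An unadjusted p below 0.05 with a higher level was reached by 2 of them in DESeq2 (Gbp7 and Ido1), where 1.65% of all tested genes reached it, and by 0 in edgeR and 3 in limma. No member reached it with a lower level, where 1.38% of all genes did. Cxcl9 and Irf1 were the only members in which all 4 knockouts lay above all controls, a pattern seen in 1.10% of tested genes, and the rule fixed it for these 2. The reverse pattern was seen in 1.02% of genes and in no member.

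Most pairs of members varied together from library to library. Of the 36 pairs among the 9 tested members, 34 had a positive Pearson correlation of log2 normalized counts over the 8 libraries, with a median r of 0.53. After each genotype's mean was subtracted, 34 were positive and the median was 0.45. These points share library, depth and tissue content, and the same was not computed for pairs of other genes. The values are thus a description and do not set the members apart. With the genotype difference that chose Cxcl9 left in, Cxcl9 ran closest to Gbp7 (r = 0.875) and Gbp2 (0.871), and Gbp2 to Gbp7 (0.839). Cxcl10 with Irf1 (-0.04) and with Ido1 (-0.03) were the only negative pairs, and within genotypes these were 0.21 and 0.16 while Irf1 with Gbp3 (-0.11) and Ido1 with Socs1 (-0.04) were negative. With genotype means subtracted the order differed. Cxcl9 then ran closest to Cxcl10 (0.824, against 0.28 over all libraries) and Gbp3 (0.822), ahead of Gbp7 (0.812) and Gbp2 (0.784), and the highest pairs were Cxcl10 with Gbp7 (0.943) and Irf1 with Irf8 (0.913).

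Among 10225 genes with a mean normalized count of at least 50, those most like Cxcl9 over the 8 libraries were Acly (r = 0.951, Spearman's rho = 0.976), Phc2 (r = 0.946, rho = 0.905), Clu (r = 0.945, rho = 0.929), Cfl1 (r = 0.937, rho = 0.833) and Hmgcs1 (r = 0.936, rho = 0.976). With genotype means subtracted, their r ranged from 0.839 to 0.910. Acly encodes the enzyme that makes cytosolic acetyl-CoA, Hmgcs1 an early enzyme of cholesterol synthesis, Clu the chaperone clusterin, Cfl1 the actin-severing protein cofilin and Phc2 a Polycomb protein. They are the top of a ranking over 8 points, and the ranking was chosen by Cxcl9's own pattern.

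The rest of the pathway was read from lists of its genes, counted as higher or lower by the sign of the fitted log2 fold change. Over all tested genes 48.5% were higher by this count, and 1.65% were higher with an unadjusted p below 0.05. In each list 2 genes were named for the largest absolute log2 fold change among those with a mean of 20 or more normalized counts, so the size of their change is a description. Not one gene of these lists was called by DESeq2, edgeR or limma with all 8 libraries. Of the immunity-related GTPases (IRGs), which act with the guanylate-binding proteins on vacuoles, 7 of 9 were tested, and 6 were higher and 1 lower, with a median log2 fold change of 0.72 and 2 at an unadjusted p below 0.05. This median was 0.33 without Adipoq-F2-KO library 2 and 1.26 without floxed library 2. Iigp1 had normalized counts of 3.03, 24.2, 18.8 and 1.55 in the controls and 38.7, 41.5, 26.0 and 37.6 in the knockouts. The knockouts lay above all controls, a pattern seen in 1.10% of tested genes. Raw counts were 5, 46, 9 and 2 in the controls, the last under the floor of 3 counts, and 49, 67, 13 and 20 in the knockouts. The log2 fold change of Iigp1 was 1.64 (SE 0.68, DESeq2 adjusted p = 0.9998), 2.52 without floxed library 2 and 1.27 without floxed library 4. Irgm2 had 107, 427, 247 and 206 in floxed controls and 555, 828, 300.3 and 421 in Adipoq-F2-KO, with floxed library 2 inside the knockout range. Its log2 fold change was 1.09 (SE 0.50, DESeq2 adjusted p = 0.9998), and 1.51 without floxed library 2 (DESeq2 adjusted p = 0.0187), a fit that called 23 genes (0.144%). Of the 7 tested IRGs that fit called 2, Irgm2 and Igtp. Igtp had 1.65 there (DESeq2 adjusted p = 0.0187) and 0.90 with all 8 libraries (DESeq2 adjusted p = 0.9998). Exons of Irgm2 and Igtp overlap on the same strand, so their separate values are uncertain.

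Of 7 other guanylate-binding protein genes, 5 were tested and all 5 had a positive fitted log2 fold change (0.04 for Gbp8, whose group means were 51.9 in floxed controls and 51.4 in Adipoq-F2-KO), with a median of 0.29 and no unadjusted p below 0.05. Without Adipoq-F2-KO library 4 the median was 0.10. Gbp4 had 30.9, 59.0, 54.4 and 41.8 in floxed controls and 59.99, 60.14, 60.06 and 63.9 in Adipoq-F2-KO. The knockouts lay above all controls by a narrow margin, a pattern seen in 1.10% of tested genes (log2 fold change 0.41, SE 0.27, DESeq2 adjusted p = 0.9998). The fold change of Gbp4 without floxed library 1 was 0.24. Gbp9 had a log2 fold change of 0.29 (SE 0.34, DESeq2 adjusted p = 0.9998), and leaving out 1 Adipoq-F2-KO library gave from 0.098 (library 4) to 0.47 (library 1). Gbp4 and Gbp9 share exon sequence on one strand, which makes their separate values uncertain.

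Of 33 other genes induced by interferon gamma, 31 were tested, and 25 were higher and 6 lower, with a median of 0.27, which was 0.16 without Adipoq-F2-KO library 2. An unadjusted p below 0.05 was reached by 3 that were higher and by 1 that was lower, Cxcl11. Cd274, which encodes the checkpoint ligand PD-L1, had normalized counts of 18.2, 45.3, 43.9 and 13.2 in floxed controls and 67.9, 89.9, 40.0 and 65.8 in Adipoq-F2-KO. In 3 of 4 knockouts it lay above all controls (log2 fold change 1.18, SE 0.43, DESeq2 adjusted p = 0.9998). Ubd, a ubiquitin-like modifier, ran from 30.9 to 510.2 in floxed controls and from 203 to 620.0 in Adipoq-F2-KO. Its log2 fold change was 1.04 (SE 0.83, DESeq2 adjusted p = 0.9998), with floxed library 3 the highest control. It was 1.99 without that library and 0.68 without floxed library 1.

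Nos2 (ENSMUSG00000020826), which encodes inducible nitric oxide synthase and belongs to the same list, showed the weight of floxed library 3 most clearly, and was named after its values were seen. Normalized counts were 195, 84.9, 4592 and 95.2 in floxed controls and 673, 541, 961 and 494 in Adipoq-F2-KO. Floxed library 3 exceeded every knockout, and the other 3 controls lay below every knockout. The log2 fold change was -0.89 with all 8 libraries (SE 1.26, no adjusted p from DESeq2) and 2.41 without floxed library 3 (DESeq2 adjusted p = 5.3e-12). Without that library 4 of the 31 genes were called, where 0.644% of all tested genes were, and all 4 were higher in Adipoq-F2-KO: Nos2, Casp4 (0.86, adjusted p = 5.5e-04), Pim1 (0.55, adjusted p = 0.0214) and Dtx3l (0.63, adjusted p = 0.0261). With all 8 libraries Casp4 had a log2 fold change of 0.39, Pim1 of 0.42 and Dtx3l of 0.40, each with a DESeq2 adjusted p of 0.9998. Exons of Dtx3l and Parp9 overlap on opposite strands.

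Of the 13 genes of MHC class I presentation, 13 were tested and all were higher, with a median of 0.21 and 2 at an unadjusted p below 0.05. Psmb9, a subunit of the immunoproteasome, had a log2 fold change of 0.52 (SE 0.23), and Tap1, which carries peptides into the endoplasmic reticulum, of 0.41 (SE 0.27), both with a DESeq2 adjusted p of 0.9998. Exons of this pair overlap on opposite strands, and without Adipoq-F2-KO library 2 Psmb9 fell to 0.30 and Tap1 to 0.12. The list median was 0.11 without floxed library 1 and 0.37 in the 5 libraries of at least 10000000 counts. Of 10 genes of MHC class II presentation, 9 were tested and 9 were higher, with a median of 0.77 and 1 at an unadjusted p below 0.05. This median was 0.45 without floxed library 1 and 1.21 in the 5 libraries of at least 10000000 counts. H2-Aa, an MHC class II chain, had 585, 2701, 4653 and 3883 in floxed controls and 6729.7, 6087, 5212 and 2867 in Adipoq-F2-KO. Floxed library 1 was far below the others, and 3 of 4 knockouts lay above all controls (log2 fold change 0.82, SE 0.62, DESeq2 adjusted p = 0.9998, and 0.48 without floxed library 1). H2-Ob had a log2 fold change of 1.21 (SE 0.80, DESeq2 adjusted p = 0.9998) and of 2.89 without floxed library 2 (DESeq2 adjusted p = 0.0390).

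Genes induced mainly by type I interferon were compared because many respond to both cytokines. All 24 were tested, and 20 were higher and 4 lower, with a median of 0.18 and 1 at an unadjusted p below 0.05. This median turned to -0.38 without Adipoq-F2-KO library 2, to -0.08 without floxed library 1 and to -0.02 without floxed library 4. Whether the lists differ from each other was not tested. The summed counts of the type I list were highest in floxed library 2 (22252) and Adipoq-F2-KO library 2 (23081), and 6827 to 11838 in the other 6. Ifi44 had a log2 fold change of 0.74 (SE 0.98, no adjusted p from DESeq2), which turned to -0.52 without Adipoq-F2-KO library 2 and was 1.94 without floxed library 2. Ifit3b had a log2 fold change of 0.61 (SE 0.30, DESeq2 adjusted p = 0.9998).

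**Figure D4:**
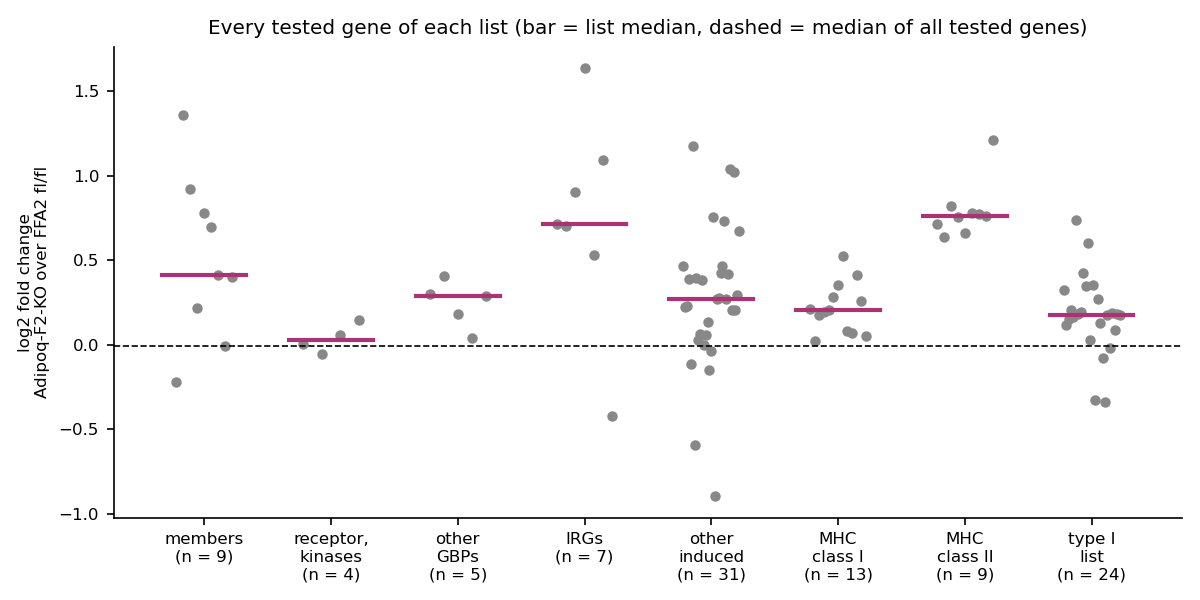
DESeq2 log2 fold change (y axis, Adipoq-F2-KO over FFA2 fl/fl) of every tested gene of the members and of 7 related lists (x axis, number tested in brackets), with the list median as a bar and the median of all tested genes (-0.01) dashed. The medians of the IRGs (0.72) and MHC class II (0.77) lie highest, and those of the receptor and kinase genes (0.03) and the type I list (0.18) lie lowest.

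Markers of cells that make or answer interferon gamma were summed in each library. In bulk tissue fewer cells of a type and less RNA per cell cannot be told apart. The dendritic cell markers (5 of 8 tested, 5 higher, median log2 fold change 0.59) summed to 113 to 177 in floxed controls and to 178 to 244 in Adipoq-F2-KO. The groups parted only narrowly, at 176.6 in floxed library 2 against 178.4 in Adipoq-F2-KO library 1. Itgax made up most of this sum and overlapped by itself, with 107.5 and 117.1 in floxed libraries 2 and 3 against 106.6 and 106.0 in Adipoq-F2-KO libraries 1 and 2. Of the markers too low for the test, Cd209a had a lower mean in Adipoq-F2-KO (3.35 against 4.67), and Xcr1 and Batf3 a higher one. The macrophage markers (10 of 10 higher, median 0.54) summed to 223 to 608 in floxed controls and to 418 to 790 in Adipoq-F2-KO, where 3 of 4 lay above all controls. The T cell and intraepithelial lymphocyte markers (11 of 13 higher, median 0.21) overlapped, at 1444 to 2491 and 1692 to 2493, as did the natural killer and innate lymphoid markers, at 146 to 229 and 156 to 188. Of the latter, Klrb1c and Eomes were at or under 3 counts in every library. The T cell sum was made up mostly of Gzma, Itgae, Gzmb and Cd8a. Of its smaller members, Cd4, the helper T cell coreceptor, had 21.2, 39.5, 25.1 and 18.6 in floxed controls and 33.2, 69.4, 48.1 and 77.1 in Adipoq-F2-KO, 3 of 4 knockouts above all controls (log2 fold change 1.10, SE 0.38, DESeq2 adjusted p = 0.976). Cd2, a T cell adhesion receptor, had a log2 fold change of 1.35 (SE 0.60, DESeq2 adjusted p = 0.9998). Cd2 and Cd4 had the largest fold changes of that list and were picked out after their values were seen. The 2 genes of the list that were lower were Cd3e (-0.07) and Cd8a (-0.03), and the smallest rises were those of Trdc (0.02), Cd8b1 (0.03) and Gzma (0.04). B and plasma cell markers (6 of 8 tested, 6 higher, median 1.05) overlapped too, at 382 to 2868 and 1005 to 2044, sums made up mostly of Jchain, with Mzb1 at or under 3 counts throughout. Endothelial markers summed to 85.9 to 295 and 78.9 to 344. No marker was at 0 in every library, and none was called by DESeq2.

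Single members were set against a score of each list, not against its sum. The score was the mean of log2(normalized count + 1) over the list's tested genes, each gene centered on its mean. Every tested gene thus weighed the same in it. Over the 8 libraries, Cxcl9 had r = 0.813 with the macrophage score, 0.812 with the B and plasma cell score and 0.825 with the MHC class II score. With genotype means subtracted, r was 0.746, 0.705 and 0.711. Its highest r was with the IRG score over all libraries (0.845) and with the smooth muscle score within genotypes (0.885, against 0.626 over all). Its r with the dendritic cell score was 0.707, and 0.125 within genotypes. Gbp3 followed the B and plasma cell score (r = 0.933, and 0.979 within genotypes), Gbp7 the IRG score (0.973 and 0.961) and Ido1 the T cell score (0.857 and 0.820). Irf1 had r = 0.296 with the macrophage score (-0.14 within genotypes) and 0.690 with the T cell score (0.584). These are 8 points that share library and tissue content, and the part of cell content in the members' differences was not tested.

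**Figure D5:**
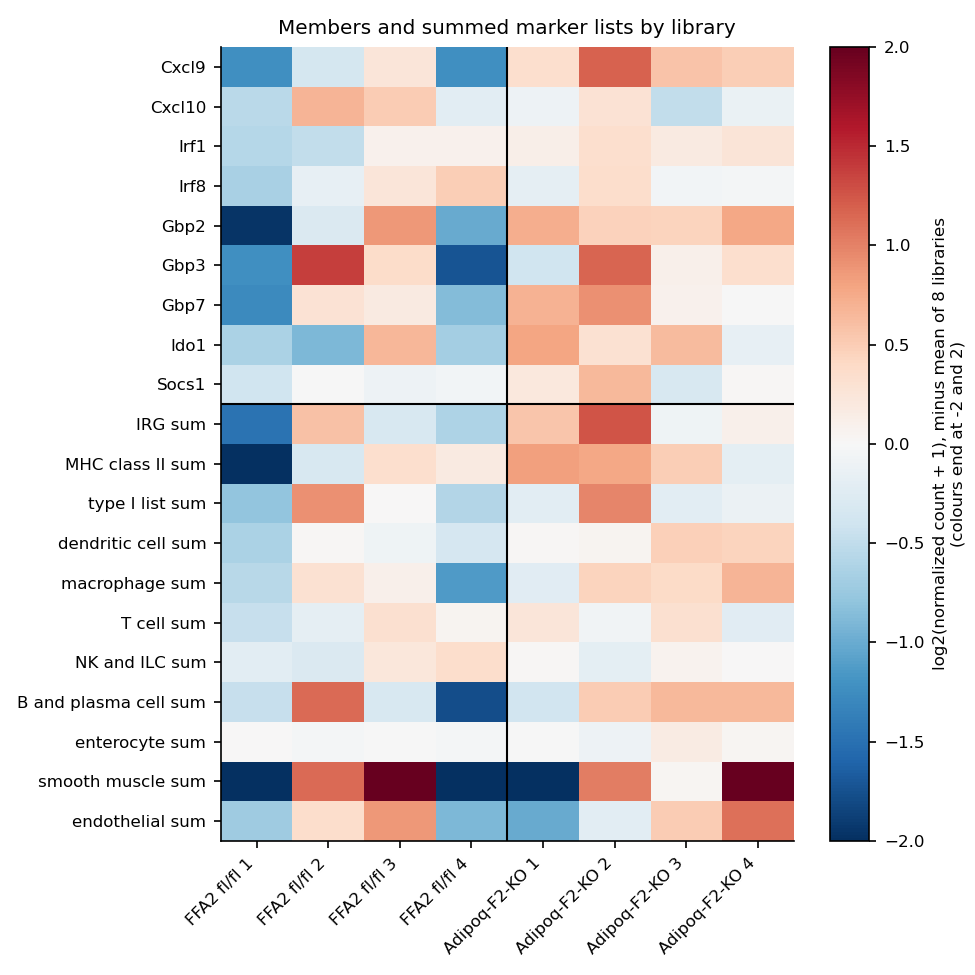
Log2(normalized count + 1) of the 9 tested members and of summed marker lists (rows), each centered on its mean over the 8 libraries (columns, FFA2 fl/fl left and Adipoq-F2-KO right), with red above and blue below the mean and the color scale cut at both ends. FFA2 fl/fl libraries 1 and 4 are low in Cxcl9, Gbp2, Gbp3 and Gbp7 and in the macrophage sum (336 and 223), and library 3 is high in smooth muscle markers.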

How the data were processed

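Each library was assigned to its genotype and number by its title, which names 1 mouse sample. The deposited values are raw read counts per Ensembl gene for each library, neither normalized nor pooled. The authors prepared polyadenylated RNA with a stranded kit, sequenced single 75 bp reads, trimmed them with Trimmomatic, aligned them with STAR and counted them with featureCounts. The submitters' processing notes name GRCm38 and mm10. Versions, annotation release and strand setting are not given in the sources used here. Symbols, coordinates and exon lengths came from GENCODE M21 (GRCm38), which lacks 4907 of the 56980 identifiers.

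The test was run on genes that reached 10 counts in 4 or more libraries, with DESeq2 1.42.0 in R 4.3.3, as in the study, with genotype as the only term, two-sided Wald tests and Benjamini-Hochberg adjustment over all tested genes (threshold 0.05). DESeq2 gave no adjusted p for 8 genes. Libraries within and across genotypes differed by 5.25 or more in chi-square per gene, so none was a duplicate. Counts carry no molecular identifiers, so a floor of 3 counts covers counting error only. Alternatives were edgeR 4.0.16, limma 3.58.1 (voom), other scaling and filters, each library left out, the 5 libraries of 10000000 counts or more (deep), a replicate block and a smooth muscle covariate.

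The members and lists were chosen with earlier results of these data known. Named genes were the members, Ifng and its receptor and kinase genes, the 2 genes of largest absolute log2 fold change per list with a mean of 20 or more normalized counts, and the 5 most like Cxcl9. A result for 1 gene of the pathway is not reported here. Correlations used log2(normalized count + 1).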

Additional observations from a re-analysis of the deposited data

Results flagged for a closer look

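In each group of 4 libraries, a highest or lowest value was noted where its gap to the nearest library, as a share of the group's range, exceeded Dixon's critical value. Of 92 groups checked, 10 met it, where chance gives about 1 in 20. Among the members, Gbp6 in floxed library 4 was low, at a normalized count of 0.774 against 5.45 to 6.32 in the other floxed controls, on 1 raw count. Ido1 in floxed library 3 was high, at 387 against 131 to 157. Nos2 in the same library stood at 4592, against 84.9 to 195 in the other floxed controls. The smooth muscle markers of this library summed to 20627 against 187 to 3478.

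Floxed library 2 was high in H2-Ob, at 48.5 against 3.63 to 10.5, and in Ifi44, at 196 against 21.8 to 48.1. Adipoq-F2-KO library 2 was high in Ifi44, at 333 against 45.1 to 62.1, in Tap1, at 1408 against 681 to 776, and in the sum of the type I list, at 23081 against 10135 to 10874. Gbp4 in Adipoq-F2-KO library 4 stood at 63.9, and the other 3 knockouts lay between 59.99 and 60.14. No cause of these values was tested.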

How the results depend on the processing

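The median log2 fold change of the 7 tested members that were not picked ran from 0.17 to 0.53 with each library left out and from 0.37 to 0.70 under the other alternatives. With each library left out, Cxcl9 ranged from 1.11 to 1.64 and Irf1 from 0.31 to 0.53, whose direction the choice of these genes fixed. The number of genes called over all tested genes was 6 in DESeq2, 2 in edgeR, 1 in limma, 3 without a low-count filter, 78 in the 5 deep libraries and 2 to 103 with each library left out (23 without floxed library 2, 103 without floxed library 3). The replicate numbers gave no pairing that held for every number. Deviations of same-numbered libraries correlated at 0.54, 0.29, 0.01 and -0.42. The highest r with another number was lower for numbers 1 (0.42) and 2 (0.16) and higher for numbers 3 and 4 (0.52 each). A fit with the replicate number as a block called 11 genes and turned Irf8 to 0.042. Irf8 was also 0.057 in limma, 0.14 in the deep libraries and -0.18 to 0.19 with each library left out. Cxcl10 was 0.031 in the deep libraries and -0.43 to 0.048 with each library left out. With each library left out, Gbp2 ranged from 0.62 to 1.57, Gbp3 from -0.18 to 1.13, Ido1 from 0.53 to 1.17, Ifngr1 from -0.10 to 0.081, Ifngr2 from -0.12 to 0.028, Ifi44 from -0.52 to 1.94, Irgm2 from 0.79 to 1.51, H2-Ob from 0.70 to 2.89, the median of the receptor and kinase genes from -0.035 to 0.089 and the median of the type I list from -0.38 to 0.87. Ido1 was 1.30 in the deep libraries. Nos2, at -0.89 with all libraries, was 1.57 in limma, 2.28 in the deep libraries, 1.42 with the replicate block, 0.55 with the smooth muscle covariate and -1.29 to 2.41 with each library left out. Ifngr1 was -0.0061 in edgeR and -0.0050 with TMM scaling. With genotype means subtracted, r with Cxcl9 was 0.861 for Acly, 0.863 for Phc2, 0.860 for Cfl1 and 0.839 for Hmgcs1, and Spearman's rho was 0.833 for Cfl1. The causes were not tested. Depth limits the low genes, with 11 to 79 counts per library for Cxcl9, 5 to 45 for Cxcl10 and 8 to 52 for Socs1, and fewer still for Gbp6 and Ifng.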
